A study of Mus musculus with 200 samples.

Results

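Mouse embryos heterozygous for the Castaneus strain (Cast) at the imprinted Dlk1-Rtl1 region of chromosome 12 were compared with littermates and stage mates that carried only the C57BL6/J (B6) sequence there. An N2 embryo was called heterozygous where the authors' genotype table gave Rtl1 the code 0.5, and B6 where it gave the code 1. Of 184 embryos with expression data, 154 N2 embryos had a code at Rtl1, 77 of each genotype. The 147 with a somite number, 71 heterozygous and 76 B6, entered the tests. The codes came from allele counts in these same libraries, so the allele shares of N2 embryos given here describe the members. Total expression levels and the F1 embryos did not enter the codes. The locus, Apoa2 and the gene lists, however, were chosen with earlier results of these data known.

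All N2 embryos were whole embryos of embryonic day 11.5, freed of extra-embryonic tissue, from backcrosses between B6 and F1 mice, and all F1 parents had a B6 mother and a Cast father. In embryos of B6 mothers (40 heterozygous, 45 B6) the Cast copy came from the F1 father, and in embryos of F1 mothers (31 heterozygous, 31 B6) it came from the F1 mother. The 16 F1 embryos were 8 from B6 mothers with Cast fathers and 8 from the reverse cross, each cross from 2 litters. Their stages hardly overlapped, at 48 to 63 somites with B6 mothers and 41 to 48 with Cast mothers where a number was given. Cross and stage thus cannot be told apart in the F1 embryos. Those of litter 2 of the Cast mothers also lacked the GAIIx run that all other F1 embryos had. RNA was sequenced from its 3′ end (3SEQ) and counted per gene, and levels are given as RPM, the reads of a gene scaled to a common total of reads on genes.

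The region between Dlk1 and Dio3 holds genes that are read from only 1 parental copy, under the control of a DNA stretch that is methylated on the paternal chromosome. Dlk1, a membrane and secreted protein of the Notch ligand family, Rtl1, a protein of retrotransposon origin needed in placenta and muscle, and to a lesser degree Dio3, the enzyme that inactivates thyroid hormone, are read from the paternal copy. Meg3, Rian and Mirg are noncoding RNAs read from the maternal copy, and Rian and Mirg carry many small nucleolar RNAs and microRNAs.

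The tested N2 libraries held 245220 to 5370322 reads (median 2292026), came from 29 litters on 14 lanes and spanned 42 to 57 somites. Both genotypes were present in 25 of the litters and in all 14 lanes, whereas only 1 lane held embryos of both kinds of mother. Expression profiles differed by lane, and lane was a term in the main fits. The median profiles of lanes A to I correlated with each other at 0.895 to 0.987 (Spearman, across genes) and those of lanes K to N at 0.965 to 0.990, but the former with the latter at only 0.654 to 0.766. Lane J correlated with lanes A to I at 0.727 to 0.795 and with lanes K to N at 0.796 to 0.837. Lanes J to N, all on flowcell 2, held 55 tested embryos (28 heterozygous, 27 B6). The 11 embryos of lane J (7 heterozygous, 4 B6) also stood apart from the rest in depth and in cluster genes. They held 245220 to 1451109 reads, and their median level was 44.7 RPM for Rtl1 and 70.5 RPM for Mirg, against 2.23 and 15.0 RPM in the other lanes. Of 7 placental markers, 3 (Prl3d1, Prl2c2 and Psg21) were at 0 in every embryo. The 7 summed to 0 to 47.4 RPM in heterozygotes (median 9.65) and 0.689 to 68.9 RPM in B6 embryos (median 12.3) of B6 mothers, and to 1.58 to 114 RPM (median 33.8) and 4.79 to 129 RPM (median 28.6) with F1 mothers. Their part in the results was not tested. The 4 decidual markers summed to 0 to 2.53 RPM in heterozygotes (median 0.408) and 0 to 20.5 RPM in B6 embryos (median 0.433). These were bulk samples, in which fewer cells of a type and less RNA per cell cannot be told apart.

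The code at Rtl1 followed its neighbours closely. The codes of Wars, Begain, Dlk1 and Meg3 equalled that of Rtl1 in 154 of 154 embryos, that of Mirg in 153 and those of Dio3, Ppp2r5c and Dync1h1 in 152. Both exceptions had B6 mothers. One was coded heterozygous from Begain to Rtl1 and B6 from Mirg on, with 36 B6 and 530 Cast allele votes at Dlk1 and 19 B6 and 0 Cast votes at Ppp2r5c. The other was coded B6 from Begain to Mirg although it had 7 B6 and 103 Cast votes at Dlk1, and it was coded heterozygous at Ppp2r5c (4 B6 and 15 Cast votes). This last embryo was therefore counted as B6 against its own Dlk1 reads. It supplied 103 of the 116 Cast votes at Dlk1 among the 77 embryos coded B6, and without it Cast votes were 0.182% of the Dlk1 votes there. Fits without these 2 embryos called 28 genes, against 26 with them.

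Heterozygotes differed from B6 embryos in the RNA level of genes along the distal part of chromosome 12. Of 10040 genes whose mean reached 5 RPM, 26 differed between genotypes (0.259%; edgeR's quasi-likelihood test with Benjamini-Hochberg adjustment, threshold 0.05), 12 higher and 14 lower in heterozygotes. Of these, 24 lay on chromosome 12 (7.16% of the 335 tested there), 11 higher (3.28%) and 13 lower (3.88%), and 2 lay on other chromosomes (0.0206% of 9705). All 24 had the same sign in embryos of B6 and of F1 mothers. These genes were chosen by the test on all of these embryos, and that choice itself favours equal signs with both kinds of mother. How often genes not called had equal signs was not tested. Without lanes J to N, 32 of 8588 genes that then reached 5 RPM were called (0.373%), 31 of them on chromosome 12 (11.4% of 273). In lanes J to N alone 2 of 10810 were called (0.0185%), 4930427A07Rik and Gstz1, both on chromosome 12 (0.531% of 377). None of the 24 was a gene of the imprinted cluster. The median difference over all genes was -0.005 on the log2 scale.

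Calls thinned out with distance from Rtl1. Of the tested genes with a position, 5 of 29 differed within 2 Mb, from 2 to 10 Mb 12 of 67, from 10 to 30 Mb 6 of 71, from 30 to 60 Mb 1 of 84, and beyond 60 Mb 0 of 80. The share of embryos whose code at a gene equalled that at Rtl1 fell alongside, with medians of 99.3%, 95.9%, 87.8%, 74.8% and 61.2% in these 5 distance classes and 49.7% on other chromosomes. A call far from Rtl1 therefore compares groups that mostly differ at the gene's own locus too. Close to Rtl1, where codes seldom differed, the locus of origin cannot be told apart. Farther away some embryos had another code than at Rtl1, 18 of 154 at Gstz1 and 33 at Plek2. The locus of origin was not tested there. The nearest gene called lay 0.552 Mb from Rtl1 (Begain) and the farthest 30.8 Mb (Plek2). Among the 24, the size of the difference ran from 0.22 to 1.40 on the log2 scale (median 0.51).

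**Figure D1:**
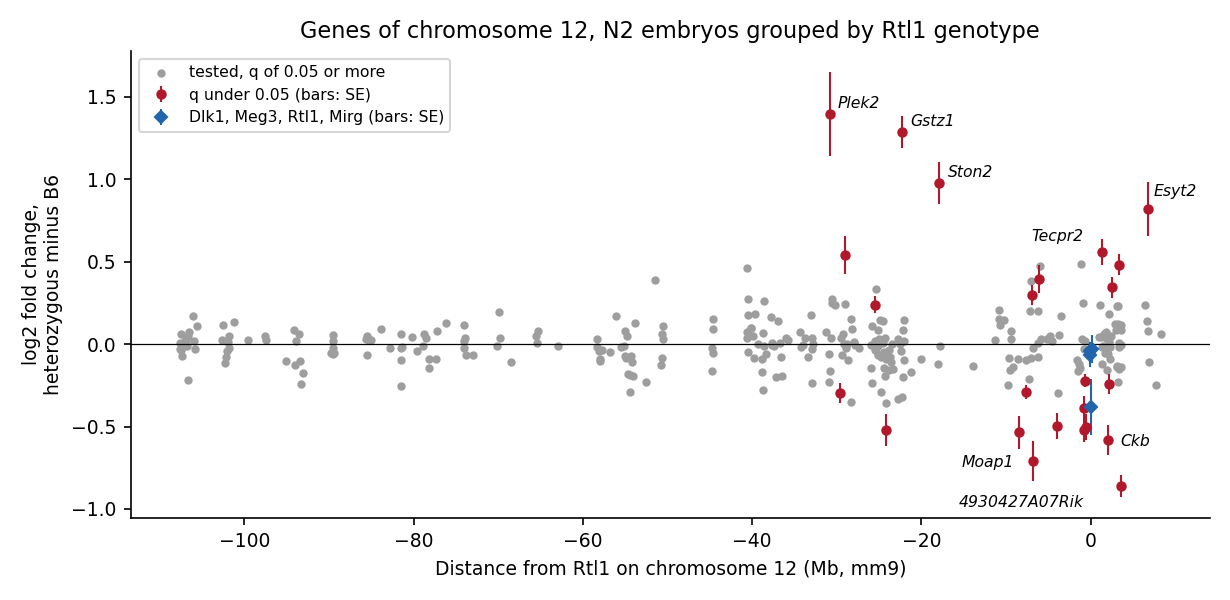
Log2 fold change (heterozygous minus B6 at Rtl1) of each tested chromosome 12 gene against its distance from Rtl1 in Mb, with called genes in red, the cluster genes Dlk1, Meg3, Rtl1 and Mirg in blue, and bars for the SE. The 24 called genes lie on both sides of 0, most of them within 10 Mb of Rtl1, and of the cluster genes Rtl1 lies lowest, at -0.38.

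Several genes called encode enzymes of intermediary metabolism. Gstz1 (chr12:88488668-88505673, mm9), which encodes the maleylacetoacetate isomerase of tyrosine breakdown, ranged from 31.4 to 235 RPM in heterozygotes (median 121) and from 17.4 to 174 RPM in B6 embryos (median 40.7). The ranges overlapped, but 68 of 71 heterozygotes lay above the B6 median. It rose 2.44-fold (1.28 ± 0.10 on the log2 scale, ± SE, adjusted p = 2.25e-22). Gstz1 lies 22.3 Mb from Rtl1, and its own code matched that of Rtl1 in 89.8% of the tested embryos. Nudt14 (chr12:114172944-114180329), a hydrolase of nucleotide sugars 3.34 Mb from Rtl1, ran from 30.8 to 224 RPM (median 137) in heterozygotes and from 14.3 to 214 RPM (median 96.7) in B6 embryos. It rose by a log2 difference of 0.48 ± 0.06 (adjusted p = 3.94e-09), with 59 of 71 heterozygotes above the B6 median. Ckb (chr12:112907566-112910549), the brain form of creatine kinase, which buffers ATP, fell by 0.58 ± 0.09 on the log2 scale (adjusted p = 3.4e-06). Its medians were 124 RPM in heterozygotes and 192 RPM in B6 embryos, within overlapping ranges of 8.16 to 291 and 18.9 to 391 RPM.

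The gene with the smallest p was 4930427A07Rik (chr12:114394632-114413736), 3.57 Mb from Rtl1. It ran from 1.94 to 50.7 RPM in heterozygotes (median 20.6) and from 13.3 to 60.3 RPM in B6 embryos (median 38.5). Only 2 of 71 heterozygotes lay above the B6 median. The heterozygous level was 0.551 of the B6 level (-0.86 ± 0.07 on the log2 scale, adjusted p = 2.25e-22).

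Genes called that act in membrane traffic and autophagy differed in both directions. Ston2 (chr12:92876982-93026827), an endocytic adaptor at synapses, rose 1.97-fold (0.98 ± 0.13 on the log2 scale, adjusted p = 9.16e-09) from a median of 3.49 RPM in B6 embryos to 7.72 RPM in heterozygotes. Tecpr2 (chr12:112127474-112210604), a protein of autophagy 1.34 Mb from Rtl1, rose 1.47-fold (0.56 ± 0.08, adjusted p = 9.97e-08), with medians of 7.57 and 12.2 RPM. Esyt2, which tethers the endoplasmic reticulum to the plasma membrane, rose by a log2 difference of 0.82 ± 0.16 (medians 4.76 and 11.2 RPM). Atg2b (chr12:106851749-106923451), a lipid transfer protein of autophagosome growth, fell by 0.50 ± 0.08 on the log2 scale (adjusted p = 3.89e-06), from 19.2 RPM in B6 embryos to 12.9 RPM in heterozygotes. The ranges of the genotypes overlapped for each of these genes.

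On the Dlk1 side of the cluster a run of neighbours was lower in heterozygotes. Slc25a29 and Slc25a47, both mitochondrial carriers, and Wars, the cytosolic tryptophanyl-tRNA synthetase, lie 0.764, 0.741 and 0.718 Mb from Rtl1. Slc25a47 (chr12:110089339-110095024) ran from 4.78 to 32.8 RPM in heterozygotes (median 13.2) and from 6.02 to 43.0 RPM in B6 embryos (median 20.5). It fell by 0.52 ± 0.07 on the log2 scale (adjusted p = 1.36e-07). Slc25a29 fell by 0.39 ± 0.07 and Wars by 0.22 ± 0.04, the smallest difference among the 24. Begain (chr12:110270397-110291589), which encodes a protein of the postsynaptic density, lies 0.552 Mb away. It ran from 1.94 to 24.2 RPM in heterozygotes (median 12.5) and from 6.02 to 35.8 RPM in B6 embryos (median 17.9), and fell by 0.50 ± 0.08 (adjusted p = 2.86e-06). On flowcell 1 alone its difference was -0.31 and was not called by edgeR. Wdr25, between Wars and Begain, did not differ (0.02 ± 0.08 on the log2 scale, adjusted p = 1.0 in edgeR's quasi-likelihood test). Of the 25 tested genes within 2 Mb outside the cluster, 1 rose (Tecpr2) and 4 fell, and their median difference was -0.02.

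Cpsf2 (chr12:103214184-103244203), a subunit of the complex that cleaves mRNA 3′ ends, fell by 0.29 ± 0.04 on the log2 scale (medians 51.5 RPM in heterozygotes and 60.6 RPM in B6 embryos, adjusted p = 1.36e-07 in edgeR's quasi-likelihood test). Moap1, which promotes apoptosis through Bax, fell by 0.71 ± 0.12, and Mlh3, a DNA mismatch repair protein, by 0.52 ± 0.09. Plek2, an actin-linked protein of red cell precursors, had the largest difference, a rise of 1.40 ± 0.25 from a median of 1.69 RPM in B6 embryos, 14 of which had no read of it, to 11.1 RPM in heterozygotes. Its code matched that of Rtl1 in 80.3% of the embryos. Kif26a, a kinesin family member, and Itpk1, an inositol phosphate kinase, rose by 0.35 ± 0.06 and 0.30 ± 0.06. The other genes called were Gm1568, Ifi27l1 and 2410016O06Rik, which rose by 0.54, 0.40 and 0.24, and D130020L05Rik, 2310015A10Rik and 2810002N01Rik, which fell by 0.54, 0.30 and 0.24.

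The direction of each local difference was set beside the alleles of the F1 embryos, whose reads at strain-specific bases were counted as votes for B6 or Cast. Of the 24 genes called on chromosome 12, 20 had 20 votes or more in both F1 crosses. With the share averaged over both crosses, the N2 difference went the way the F1 alleles differed in 20 of these 20, higher in heterozygotes where Cast was the stronger allele and lower where B6 was. For 4930427A07Rik the B6 share of F1 votes was 0.942, for Ckb 0.970 and for Moap1 0.773, all lower in heterozygotes. For Plek2 the share was 0.025, for Gstz1 0.246 and for Tecpr2 0.366, all higher in heterozygotes. Taken by cross, 20 of 20 did so with Cast mothers and 19 of 20 with B6 mothers, where Esyt2, higher in N2 heterozygotes, had a B6 share of 0.518. The weakest averaged allele difference among the 20 was at Itpk1, with a B6 share of 0.489. Wars, lower in heterozygotes, counted through an averaged F1 share of 0.581. In the N2 heterozygotes themselves its B6 share was 0.443 with B6 mothers and 0.508 with F1 mothers.

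Among chromosome 12 genes that were not called, 182 of 275 (66.2%) went in the direction of the F1 alleles, and 4108 of 8164 (50.3%) did on other chromosomes. Spearman's rho between the F1 B6 share and the N2 difference was -0.94 over the 20 genes called, which were chosen for a large difference, -0.47 over the 275 others and -0.01 over the 8164 elsewhere. These correlations run across genes, which share libraries and linked genotypes and are no independent replicates.

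**Figure D2:**
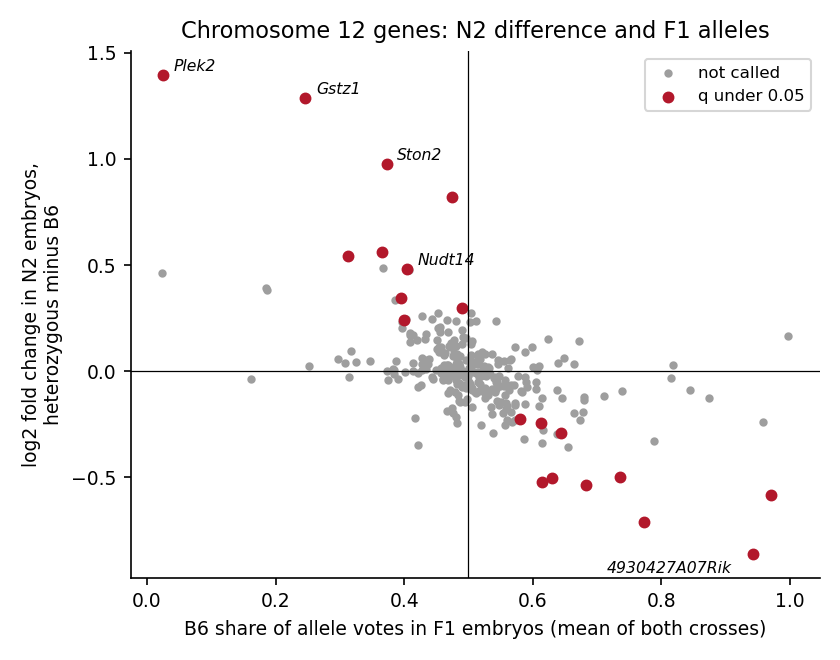
Log2 fold change of chromosome 12 genes in N2 embryos (heterozygous minus B6 at Rtl1) against the B6 share of allele votes in F1 embryos, averaged over both crosses. The 20 called genes run from Plek2 at a share of 0.025 and a difference of 1.40 down to 4930427A07Rik at 0.942 and -0.86.

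Splitting the embryos by mother asked whether the difference depended on the parent that gave the Cast copy. In embryos of B6 mothers 14 of 10040 genes differed (0.139%), 13 of them on chromosome 12 (3.88%). In embryos of F1 mothers 16 differed (0.159%), 14 of them on chromosome 12 (4.18%), and 7 genes were called in both. The contrast between the mothers called 0 genes in edgeR's quasi-likelihood test (smallest adjusted p = 1.0). At an unadjusted p under 0.05 it held 238 genes (2.37% of 10040), 13 of them among the 335 of chromosome 12 (3.88%). A gene called in embryos of 1 kind of mother was thus not shown to differ between the mothers.

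The 2 leading genes moved the same way in both. 4930427A07Rik fell by 0.80 ± 0.09 on the log2 scale with a paternal Cast copy and by 0.95 ± 0.10 with a maternal Cast copy. Gstz1 rose by 1.05 ± 0.13 and 1.58 ± 0.15, a difference between mothers of -0.53 with a 95% interval from -0.91 to -0.15 that did not pass adjustment. The own code of Gstz1 matched that of Rtl1 in 83.1% of the embryos of B6 mothers and 95.4% of those of F1 mothers, and the part of this in the difference was not tested. Plek2 showed the same order, with a difference of 0.93 ± 0.34 and 1.94 ± 0.38 and code matches of 71.9% and 87.7%.

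Eml1, a microtubule-associated protein 1.14 Mb from Rtl1, was called only in embryos of F1 mothers (0.95 ± 0.23, adjusted p = 0.0395 in edgeR's quasi-likelihood test, against 0.03 ± 0.22 in embryos of B6 mothers). Its levels ran from 2.06 to 171 RPM in those heterozygotes and from 0.841 to 169 RPM in their B6 stage mates. These ranges nearly coincide, but the medians were 22.2 and 6.01 RPM and 29 of 31 heterozygotes lay above the B6 median. The difference between the mothers was -0.92 (95% interval -1.55 to -0.30, unadjusted p = 0.00445, not called). In embryos of F1 mothers the Eml1 difference was 1.86 on flowcell 1 alone and -0.36 both on flowcell 2 alone and in lanes J to N alone, and it was 0.70, 0.78 and 0.64 and not called without lane D, E or G.

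Of the coding genes of the imprinted cluster, Dlk1 and Rtl1 did not pass the test, and Dio3 was too scarce to enter it. Dlk1 (chr12:110691033-110701546) was among the abundant RNAs, at 170 to 1819 RPM in heterozygotes (median 497) and 151 to 1580 RPM in B6 embryos (median 446), ranges that nearly coincide. Its difference was -0.12 (95% interval -0.27 to 0.03) in embryos of B6 mothers and 0.04 (-0.13 to 0.21) in embryos of F1 mothers.

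Rtl1 (chr12:110827404-110838540) was scarce, with 1321 reads in all embryos together. It ran from 0 to 139 RPM in heterozygotes (median 2.06) and from 0 to 113 RPM in B6 embryos (median 2.85), with 6 embryos of each genotype at 0 and the highest values in lane J. Its difference was -0.18 ± 0.21 in embryos of B6 mothers and -0.72 ± 0.28 in embryos of F1 mothers, where the Cast copy is maternal (unadjusted p = 0.0103, adjusted p = 1.0 in edgeR's quasi-likelihood test). A permutation test of the lane- and somite-adjusted log2(RPM + 1), 1 of 18 such tests, gave a two-sided p of 0.0118 there and 0.657 in embryos of B6 mothers. In all embryos together Rtl1 differed by -0.38 ± 0.17 (unadjusted p = 0.0239 in edgeR's quasi-likelihood test, not called). A rank-sum test with 15 principal components of expression removed gave -0.22 (unadjusted p = 3.4e-04, adjusted p = 0.0563). Rtl1 was not called there, nor after 5, 10 or 20 components. An antisense RNA with microRNAs lies opposite Rtl1, and since the strand used in counting is not given in the sources used here, reads of Rtl1 and of its antisense RNA cannot be told apart.

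Dio3 (chr12:111517278-111519307) fell under the 5 RPM minimum. In embryos of B6 mothers it ran from 0.585 to 10.3 RPM in heterozygotes (median 2.43) and from 0 to 14.3 RPM in B6 embryos (median 1.49). Of 40 heterozygotes 31 lay above the B6 median. In embryos of F1 mothers the medians were 2.31 and 2.27 RPM. The permutation test gave a difference of 0.46 in log2(RPM + 1) with two-sided p = 0.00193 for B6 mothers and 0.08 with p = 0.647 for F1 mothers. Without lane J the first became 0.60 (p = 4e-05). These permutation p-values were not adjusted for the 18 tests. With the minimum lowered to 1 RPM, edgeR's quasi-likelihood test gave 0.64 ± 0.19 on the log2 scale (unadjusted p = 0.00114, adjusted p = 0.627) and 0.14 ± 0.21, and the difference between mothers had an unadjusted p of 0.0862. Dio3os, the antisense neighbour of Dio3, was at medians of 1.85 RPM in heterozygotes and 2.03 RPM in B6 embryos, and its permutation p was 0.455 and 0.395.

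Of the maternally read RNAs, Meg3 and Mirg did not pass the test either, and Rian was too scarce to enter it. Meg3 (chr12:110779211-110809936) ran from 292 to 1795 RPM in heterozygotes (median 733) and from 63.1 to 1697 RPM in B6 embryos (median 721). It differed by 0.02 (95% interval -0.18 to 0.21) with a paternal Cast copy and by -0.16 (-0.39 to 0.06) with a maternal Cast copy, the copy that is read. Mirg (chr12:110973191-110987665), with medians of 15.0 and 16.0 RPM, differed by 0.17 ± 0.11 and -0.30 ± 0.13. The difference between the mothers was 0.47 (95% interval 0.14 to 0.80, unadjusted p = 0.00618, not called after adjustment by edgeR's quasi-likelihood test). Its permutation p was 0.0502 in embryos of B6 mothers and 0.0229 in embryos of F1 mothers, 2 of the 18 tests. Rian (chr12:110842155-110899919) had 285 reads in all, and 24 heterozygotes and 19 B6 embryos had none. Of 59 entries for small RNAs between Dlk1 and Dio3, 1 had a mean of at least 1 RPM and 10 had no read.

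**Figure D3:**
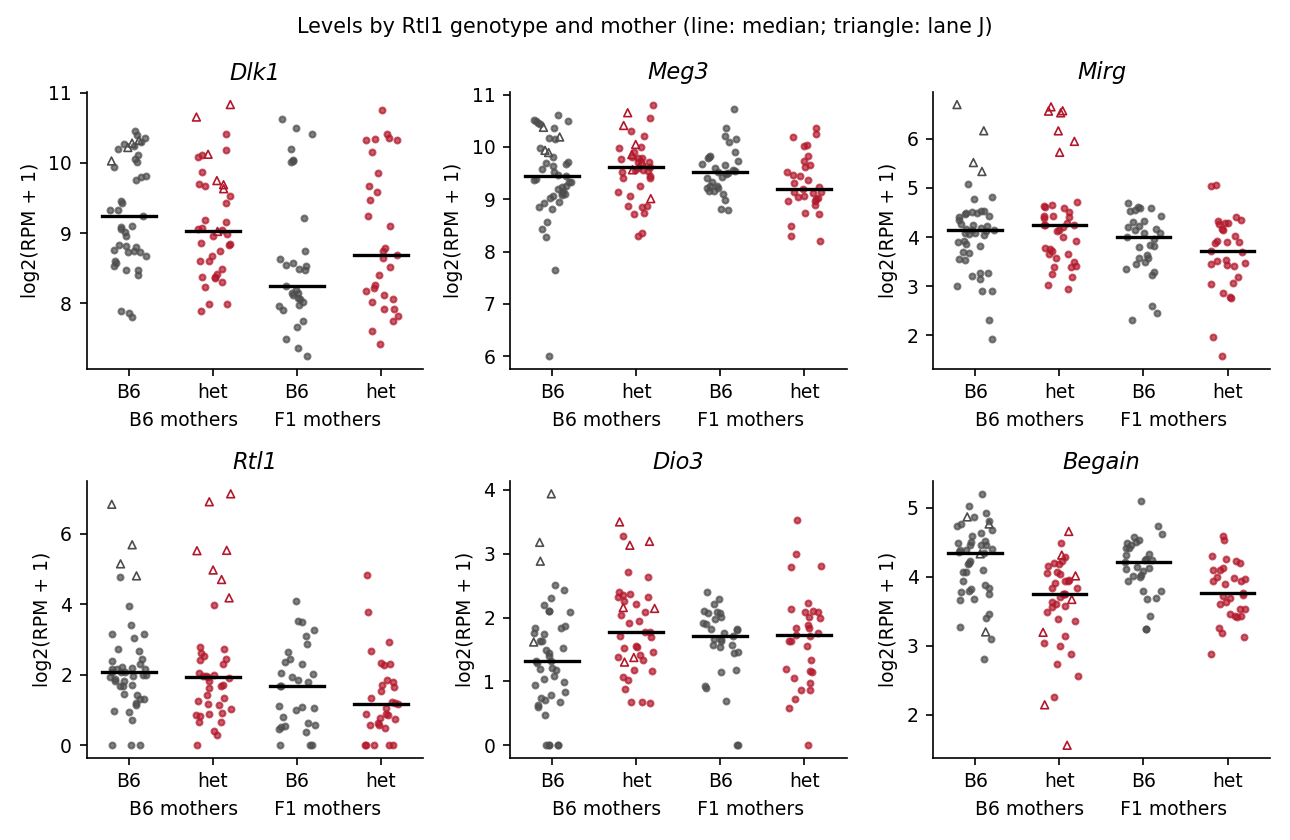
Levels of genes in and beside the imprinted cluster, as log2(RPM + 1) for each embryo, by genotype at Rtl1 and by mother, with medians as lines and lane J as triangles. Begain is lower in heterozygotes of both mothers, Dio3 is higher in heterozygotes of B6 mothers (medians 2.43 and 1.49 RPM), and the Rtl1 and Mirg levels of lane J lie above the rest.

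The allele votes show which parental copy was read. In heterozygotes of B6 mothers the B6 share of Dlk1 votes was 0.063 (5759 votes), and in embryos of F1 mothers it was 0.912 (2838 votes). The F1 embryos gave 0.057 ± 0.006 (SD, n = 8) for B6 mothers and 0.905 ± 0.010 (n = 8) for Cast mothers. A small part of the Dlk1 votes thus fell on the maternal copy in both generations. Meg3 was the mirror image. Its B6 share was 0.998 and 0.008 in N2 heterozygotes (28524 and 28784 votes) and 0.995 ± 0.011 and 0.008 ± 0.005 in F1 embryos.

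Rian and Mirg followed Meg3 with few votes. Rian had 57.5 B6 and 0 Cast votes in heterozygotes of B6 mothers and 0 and 35.5 in embryos of F1 mothers, and Mirg had 31 and 1 and then 0 and 19. In F1 embryos the Mirg share was 0.941 ± 0.032 and 0.097 ± 0.041. Rtl1 could not be placed by its votes, which numbered 3 B6 and 0 Cast in heterozygotes of B6 mothers, 0 and 3 in embryos of F1 mothers, and 6 and 6 and then 6 and 4 in the F1 crosses. In N2 embryos all of these votes fell on the maternal copy, the copy that carries the antisense RNA.

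Dio3os votes leaned to the paternal copy, and Dio3 votes did so mainly where that copy was Cast. Neither gene was silent on the maternal copy. The B6 share of Dio3 votes was 0.291 in heterozygotes of B6 mothers (215 votes) and 0.566 in embryos of F1 mothers (175 votes), and 0.228 ± 0.103 and 0.522 ± 0.142 in the F1 crosses. The shares of the F1 crosses were thus not mirror images of each other. With Cast mothers, where the paternal copy is B6, single F1 embryos ran from 0.300 to 0.667. Dio3os gave 0.411 and 0.761 (73 and 46 votes) in N2 heterozygotes.

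The level of Begain differed by -0.63 ± 0.10 in embryos of B6 mothers and by -0.32 ± 0.12 in embryos of F1 mothers, a contrast of -0.31 (95% interval -0.62 to -0.01, not called by edgeR). Its unadjusted permutation p was 1e-05 in embryos of B6 mothers and 5.2e-04 in embryos of F1 mothers. Its B6 share was 0.522 in heterozygotes of B6 mothers (1040 votes) and 0.798 in embryos of F1 mothers (889 votes). Per embryo with at least 5 votes this was 0.532 ± 0.150 (SD, n = 38) and 0.804 ± 0.100 (n = 33). The F1 crosses gave 0.547 ± 0.039 and 0.722 ± 0.060 (n = 8 each), with highest and lowest values of 0.610 and 0.618 that do not overlap. The share was higher where the B6 copy came from the father in both generations, though the F1 crosses also differed in stage and in part in sequencing runs. Pooled F1 shares shifted between the crosses at other chromosome 12 genes too, as at Taf1b (0.693 with B6 and 0.941 with Cast mothers) and Zfp277 (0.725 and 0.555). How common such shifts are was not tested. Wars, 0.718 Mb from Rtl1, had shares of 0.443 and 0.508 in N2 heterozygotes and of 0.556 ± 0.038 and 0.611 ± 0.044 in F1 embryos, and Wdr25 had 0.481 and 0.497. On the far side of Dio3, Ppp2r5c, a regulatory subunit of a protein phosphatase, had 0.265 and 0.282 and in F1 embryos 0.306 ± 0.056 and 0.327 ± 0.048.

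**Figure D4:**
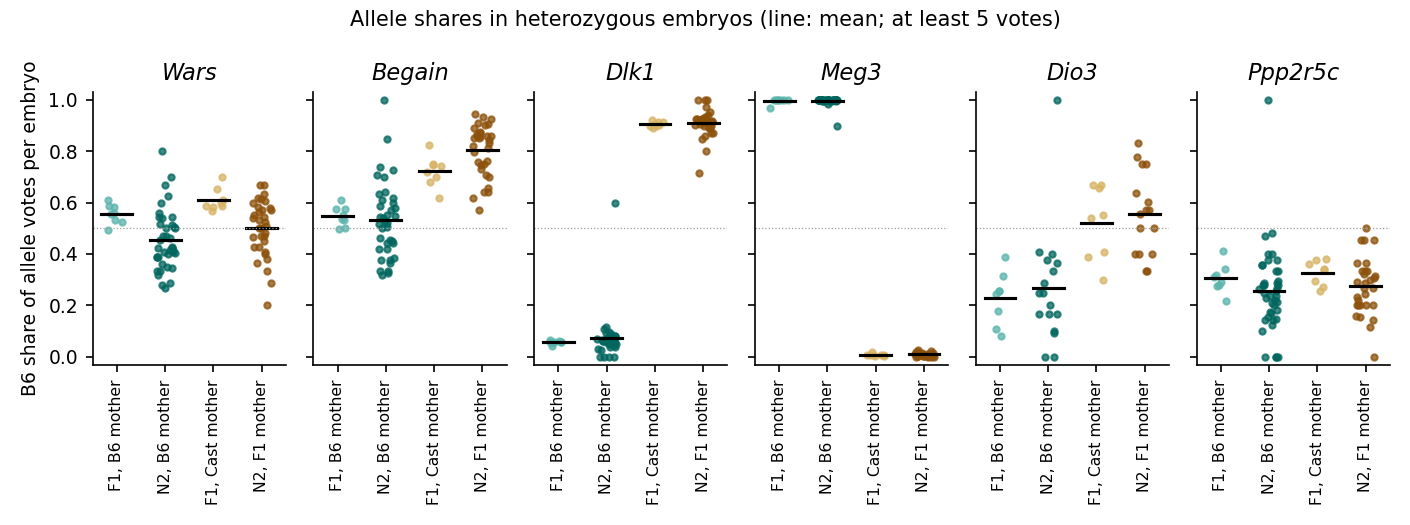
B6 share of allele votes (vertical axis, 0 to 1) per heterozygous embryo with at least 5 votes, for N2 embryos of B6 and F1 mothers and F1 embryos of B6 and Cast mothers, with the mean of each group as a line. Dlk1 and Meg3 swap between mothers in opposite directions, and Begain and Dio3 shift part of the way.

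Level and share together give the output of each B6 copy, as the heterozygous level times the B6 share, set against the level of B6 embryos as 100%. This measure was chosen after the values were seen, and its SE covers the level only. The N2 votes behind it also gave the genotype codes. Votes came from all 77 heterozygotes and levels from the 71 tested, with the Dio3 level from the fit with a 1 RPM minimum. For Dlk1 the maternal B6 copy came to 5.79 ± 0.30% and the paternal copy to 93.8 ± 5.6%, a sum of 99.5%. For Meg3 they came to 101.1 ± 6.9% and 0.714 ± 0.056%, a sum of 101.8%. For Begain the maternal copy gave 33.7 ± 2.4% and the paternal 63.9 ± 5.2%, a sum of 97.5%. For Dio3 they gave 45.2 ± 6.0% and 62.5 ± 9.3%, a sum of 107.7%. For Mirg, with only 32 and 19 votes, the sum was 108.7%, for Wars it was 81.4% and for Ppp2r5c 56.2%. The level of an embryo with 2 B6 copies is 100%. For a gene read almost wholly from 1 copy, with no difference in level, the measure itself gives a sum near 100%.

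Genes elsewhere in the genome were few. Prdx1 on chromosome 4, a peroxidase that removes hydrogen peroxide, was called as higher in heterozygotes (1.05 ± 0.21 on the log2 scale, adjusted p = 7.67e-04 in edgeR's quasi-likelihood test). It ran from 7.77 to 1180 RPM in heterozygotes (median 57.2) and from 8.19 to 350 RPM in B6 embryos (median 43.2). The titles number the libraries of a lane from 1 to 12, and 12 of the 13 tested libraries with number 1 were heterozygous. These 13 had a median of 251 RPM of Prdx1 against 44.3 RPM in the other 134, and in 11 of 13 lanes library 1 was the highest of its lane. Without the libraries numbered 1 the medians were 49.0 RPM in heterozygotes and 43.2 RPM in B6 embryos, and the difference fell to 0.11 (unadjusted p = 0.438 and not called by edgeR). With library number as a further factor it was 0.10.

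Leo1 on chromosome 9, a subunit of the Paf1 transcription elongation complex, was called in embryos of F1 mothers (0.67 ± 0.16, adjusted p = 0.0349 in edgeR's quasi-likelihood test). Its median was 127 RPM in libraries numbered 1 and 53.2 RPM in the others, and without the former the difference was 0.33 and was not called. Rab25 on chromosome 3, a small GTPase of epithelial vesicle transport, was the other gene called in all embryos. It ran from 0 to 11.6 RPM in heterozygotes (median 5.20) and from 2.05 to 12.8 RPM in B6 embryos (median 6.97), and fell by 0.38 ± 0.10 (adjusted p = 0.0419). The call was kept in only 2 of 14 fits that each left out 1 lane, although the difference stayed between -0.45 and -0.32. It was called in 4 of 15 other settings of edgeR, and without lanes J to N the difference was -0.27 and was not called. DESeq2, the rank-sum test after lane, sex and somite number, and the rank-sum tests after 5 and 20 principal components of expression also called it, whereas those after 10 and 15 components did not. Adding the genotype at Rab25 itself left the difference at -0.39.

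Apoa2 on chromosome 1 (chr1:173155185-173156510), an apolipoprotein of high-density lipoprotein made by the liver, had been picked out by earlier results of these data. It ran from 37.3 to 528 RPM in heterozygotes (median 191) and from 26.1 to 461 RPM in B6 embryos (median 156). Among embryos of B6 mothers the medians were 200 and 201 RPM, and among those of F1 mothers 159 and 140 RPM. The ranges overlapped almost wholly, and 44 of 71 heterozygotes lay above the B6 median. Its difference was 0.23 ± 0.10 on the log2 scale (unadjusted p = 0.0214, adjusted p = 1.0 in edgeR's quasi-likelihood test), 0.18 ± 0.13 in embryos of B6 mothers and 0.35 ± 0.15 in embryos of F1 mothers. The unadjusted permutation p of Apoa2 was 0.145 in embryos of B6 mothers and 0.0188 in embryos of F1 mothers. Apoa2 was not called by DESeq2, which called 31 genes (0.309%), nor by a rank-sum test after regressing out lane, sex and somite number (adjusted p = 0.96). When 15 principal components of expression were also removed, in place of the hidden factors the study used, the rank-sum test called it (difference 0.20, adjusted p = 5.19e-04, rank 28 of 10040). It was called as well after 5, 10 and 20 components, which called 0.0927%, 0.0618% and 0.165% of the genes on other chromosomes and 0.538%, 0.498% and 0.657% of all. Its own code equalled that of Rtl1 in 82 of 154 embryos.

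With 15 components removed, 56 genes were called (0.558%), 46 on chromosome 12 and 10 elsewhere (0.103% of 9705). These 10 included 5 of the 20 tested fetal liver proteins, Apoa2, Itih2, Alb, Afp and Trf. Without the libraries numbered 1, where 0.488% of all genes and 0.0515% of those on other chromosomes were called, only Apoa2 of the 5 was. Without lane J, where 0.677% of all genes were called, Apoa2, Itih2, Alb and Trf were. With 5, 10 and 20 components removed, 2, 3 and 4 of the 20 were called. In edgeR's quasi-likelihood test 0 of the 20 were called, and 4 were at an unadjusted p under 0.05, as were 2.72% of all genes. Of the 20, of which 1 lay on chromosome 12, 17 were higher in heterozygotes, against 4544 of 9705 genes on other chromosomes. The median of the 20 was 0.14 against -0.005 over all genes. The median was 0.08 in embryos of B6 mothers and 0.21 in embryos of F1 mothers. Alb, the main plasma protein, had a difference of 0.41 ± 0.16. The 6 liver markers summed to a median of 796 RPM in heterozygotes and 746 RPM in B6 embryos. With B6 mothers the medians were 758 and 777 RPM, lower in heterozygotes, and with F1 mothers 943 and 735 RPM, higher in heterozygotes, and the part of liver size in these values was not tested.

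**Figure D5:**
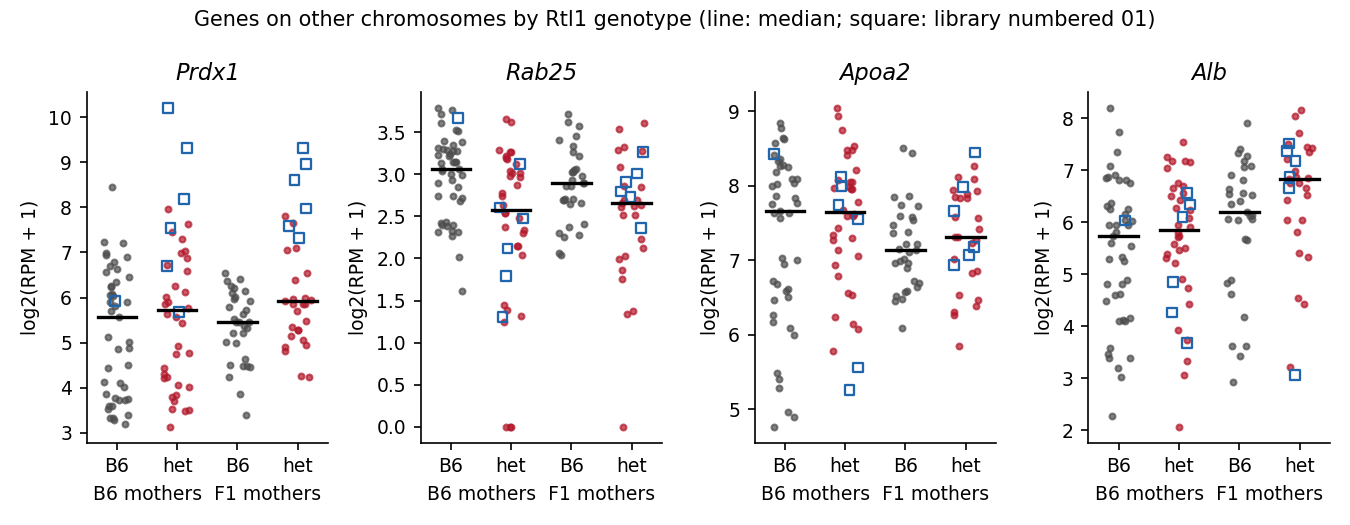
Levels of genes on other chromosomes, as log2(RPM + 1) for each embryo, by genotype at Rtl1 and by mother, with medians as lines and libraries numbered 1 as squares. The highest Prdx1 levels, up to 1180 RPM, belong mostly to the squares, and Apoa2 overlaps almost wholly between genotypes.

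Other lists tied to the cluster's known functions held no call in edgeR's quasi-likelihood test in either genotype direction or in the embryos of either mother. Of the Notch pathway, whose receptors Dlk1 can bind, 18 genes were tested, with a median difference of 0.02 and 0 at an unadjusted p under 0.05. Of 6 tested genes of thyroid hormone action, the hormone that Dio3 inactivates, the median was -0.01. Of 20 tested imprinted genes elsewhere, such as Igf2 and H19, it was -0.04, with a range from -0.22 to 0.17. Skeletal muscle genes (11 tested) and endothelial genes (10 tested), from tissues in which Rtl1 acts, had medians of 0.02 and -0.04. Of 4 tested genes of retroelement origin, with Rtl1 itself among them as the lowest, the median was -0.07. Of 3 yolk sac markers it was 0.14. Of 5 primitive erythroid markers it was 0.01 in all embryos, -0.06 with B6 mothers and 0.15 with F1 mothers, where 5 of 5 had higher values in heterozygotes and Hbb-y and Alas2 were at an unadjusted p under 0.05. These 2 were also at an unadjusted p under 0.05 in the contrast between mothers (median of the 5, -0.32), and neither was called. In embryos of F1 mothers 4 Notch genes (Jag1, Dll1, Hes1 and Nrarp) were at an unadjusted p under 0.05, as were 3.5% of all genes, and none was called.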

How the data were processed

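The authors trimmed 3SEQ reads, mapped them to mm9 and to a Cast genome built from it (Bowtie2, per the submitters' processing notes), and deposited raw counts of reads per RefSeq gene for 168 N2 and 16 F1 embryos. They also deposited allele votes, estimated counts in which a read is shared among its strain-specific bases, and a genotype code per gene and embryo. RPM was computed here from the counts. Of the N2 embryos, 8 had no mother in the labels and 6 with a mother had no genotypes, and none of these was compared. The 10040 genes whose mean reached 5 RPM were fitted with edgeR 4.0.16 (R 4.3.3), TMM normalization and the quasi-likelihood test. The fit of all embryos had genotype, lane and somite number as terms. Results by mother and their contrast came from a separate fit with mother's strain, genotype within mother, lane and somite number. Calls rest on p-values adjusted over all genes tested (Benjamini-Hochberg, 0.05), and permutation p-values are given unadjusted. Embryos are separate animals, but littermates and lanes share conditions. Single genes were also tested by 100000 permutations of genotype within lane on log2(RPM + 1).

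Alternatives were DESeq2 1.42.0, a rank-sum test on residuals without and with 15 principal components (Python 3.11.15, scipy 1.17.1, numpy 2.4.6, pandas 2.3.3), other filters, normalizations and covariates, single flowcells, lanes J to N left out or alone, and each lane left out in turn. The fits were tested on simulated data, where regressing out components could remove a difference shared by many genes. Named genes were the cluster genes, the 10 genes called with the smallest p on chromosome 12 and on other chromosomes, the 5 with the smallest p for each mother, Apoa2, and called members of the lists. Further genes called, neighbours and genes of the component-based test were named after their values were seen. The members and lists were chosen with earlier results of these data known. Gene positions were matched to mm9 for 21241 of 22033 genes. Votes cover counting of reads without molecular identifiers.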

Additional observations from a re-analysis of the deposited data

Results flagged for a closer look

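For Meg3, 1 of the 8 F1 embryos of B6 mothers had a B6 share of allele votes of 0.968, apart from the other 7, and 1 of the 8 F1 embryos of Cast mothers had a share of 0.0183, also apart from the rest of its cross. Each lay farther from its neighbour than Dixon's 95% limit for a group of 8 allows. In all, 20 groups were looked at in this way, of which chance alone flags about 1 in 20. Both values stayed on the side of their cross, and their cause was not tested.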

How the results depend on the processing

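The difference between genotypes called 26 genes in all embryos, 14 among B6 mothers and 16 among F1 mothers, and 22 to 28, 8 to 15 and 6 to 19 with 1 lane left out. On flowcell 2 alone the counts were 7, 2 and 2, in lanes J to N alone (chosen after seeing the data) 2, 1 and 2, and on flowcell 1 alone 3 for B6 mothers. For B6 mothers 7 genes were called both with litter in place of lane and with a fit of those embryos alone. The rank-sum test called 56 genes after 15 principal components, and, chosen after seeing the data, 54, 50 and 66 after 5, 10 and 20, 68 after 15 without lane J and 49 after 15 without the libraries numbered 1. The contrast between mothers called 0 genes in every fit run. Of the calls followed through the edgeR settings, that of Eml1 in F1 mothers turned its sign (-0.36 on flowcell 2 and in lanes J to N). The other changes of sign were in comparisons in which the gene was not called, among them Leo1 in all embryos (-0.05 with library number), Prdx1 in B6 mothers (-0.0020 without the libraries numbered 1), and Eml1 in all embryos (-0.13 on flowcell 2). Dlk1 became 0.15 on flowcell 1, 0.057 without lanes J to N, 0.0205 with litter, 0.0141 in the rank-sum test and 0.0163, 0.0281 and 0.0558 after 10 components, 20 components and 15 without libraries numbered 1. In B6 mothers it became 0.12 on flowcell 1, and in F1 mothers -0.13 on flowcell 2 and in lanes J to N. Meg3 became 0.0003 without the shallowest libraries, 0.0435 without lanes J to N and 0.0251 after 5 components, and in B6 mothers -0.086 on flowcell 1, -0.0933 in lanes J to N, -0.0091 without somite number and -0.0556 to 0.0786 with 1 lane left out. Mirg became 0.0747 on flowcell 2, 0.0613 in lanes J to N and -0.0642 to 0.018 with 1 lane left out. The contrast between mothers for Rtl1 became -0.10 with litter. The cause of these changes was not tested. No paired analysis was possible because replicate numbers only name embryos in accession order and match none across genotypes. Genotypes were compared within lanes, or within litters in the litter fit, through these terms. Low depth limits Rtl1, Dio3, Rian and the small RNAs.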
